A study of Mus musculus with 6 samples.

Results

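The 10 genes described here carry the inflammasome and necroptosis, a pair of pathways by which a cell under attack dies and alarms its neighbours. They are Il1b, Il18, Nlrp3, Aim2, Pycard, Casp1, Casp4, Ripk1, Ripk3 and Mlkl. They were chosen by name: each non-control probe whose gene name in the scanner files is one of these was taken, which gave 12 probes for 10 of the 26134 genes tested. Nlrp3 and Casp4 had more than 1 probe, and the brightest stood for the gene. All 12 probes passed the filter on dim probes, which on 3 or more of the 6 arrays asks for a signal clearly over background in Cy3 or Cy5, but those of Il1b and Ripk3 passed it through the treated channel only.

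Retinas came from male C57BL/6 mice, 8 weeks old. The right eye had received phosphate-buffered saline (PBS, the control) or titanium dioxide nanoparticles into the vitreous, the gel inside the eye, 7 days earlier. The nanoparticles were given at a dose labelled PTC or at 10 times that dose, labelled 10PTC. Each group had 12 mice, retinas were pooled by 4, and each dose was measured in 3 pools. No group carried a genetic change. Each of the 6 arrays held a treated pool in the dye Cy5 and PBS control RNA in Cy3, never the other way round, so a dye effect and a treatment effect cannot be told apart in a comparison with PBS. Whether that control RNA was 1 pool or several was not given in the sources used. The ratios were tested against 0, and if the control was 1 pool, its own spread does not enter. Expression is given as the log2 ratio of treated over control, where 0 is no difference.

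Inflammasomes are protein platforms that assemble in the cytosol around a sensor. NLRP3 senses cell damage, including that done by particles taken up into lysosomes, and AIM2 senses DNA. The adaptor ASC, product of Pycard, links a sensor to caspase-1, which cuts the precursors of interleukin-1 beta and interleukin-18 to their active forms and opens the pore protein gasdermin D. Caspase-4 (Casp4) senses bacterial lipopolysaccharide in the cytosol and opens the same pore. Necroptosis runs from death receptors through the kinases RIPK1 and RIPK3 to MLKL, which ruptures the plasma membrane when caspase-8 does not stop it. In the retina, microglia are the best known source of interleukin-1 beta, and necroptosis has been studied in injured photoreceptors.

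All 8 rod photoreceptor markers, which define the labelled tissue, were measured above background. Median signals over all gene spots were 153 to 221 scanner units in Cy3 and 187 to 347 in Cy5, and no spot was saturated. PTC replicates 1 and 2 were on slide 1, and the other 4 arrays were on slide 2. The p-values rest on how pools of 4 retinas differ, and with 3 arrays per dose the number of arrays limits their precision. In RNA from a whole tissue, more cells of a type and more RNA per cell cannot be told apart.

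After the lower dose, Casp1, Ripk1, Ripk3, Il1b and Il18 were called higher, and no member was called lower. Ripk3 and Il1b passed the filter through the treated channel only, which favours ratios above 0, so their calls do not count as support. The size ran from 0.19 for Il18 to 0.81 for Casp1. Nlrp3, Aim2, Pycard, Casp4 and Mlkl did not pass the test. The count of 5 higher of 10 at a limma adjusted p of 0.05 stood beside 16.9% of all genes called higher and 16.3% called lower. The median log2 ratio of the members was 0.24, and that of all genes was -0.00076. Among the 8 members whose control channel stood above background on at least 1 array, 3 rose and the median was 0.20. The count was 3 without PTC replicate 1 and also 3 without PTC replicate 3, where 12.3% and 9.70% of all genes were called higher.

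After 10 times the dose, Casp1, Ripk1 and Il1b were called higher, and again no member was called lower. The call of Il1b carries the same limit as at the lower dose. The count of 3 of 10 stood beside 14.4% of all genes called higher and 13.3% called lower. The median over the members was 0.06. With Il1b and Ripk3 left out, 2 of 8 rose. Leaving out 10PTC replicate 1, 2 or 3 left 1 member called each time, while over all genes the number called higher went from 3762 to 771, 2696 and 863. Both comparisons with PBS use control RNA in the same role, so their values are set side by side below and not counted as support for each other.

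**Figure D1:**
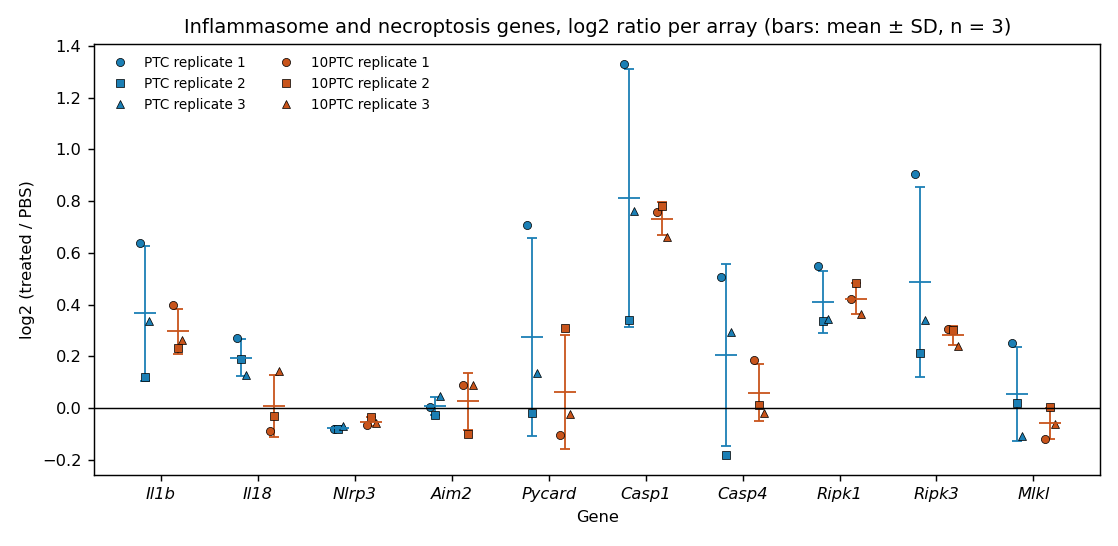
The plot of log2 ratios by array shows 1 point per array for each of the 10 genes, with treated over PBS on the vertical axis, PTC in blue and 10PTC in orange, and bars for the mean ± SD of 3 arrays. The Casp1 and Ripk1 points all lie above 0, from 0.34 to 1.33 for Casp1 and from 0.34 to 0.55 for Ripk1, while Nlrp3 stays between -0.08 and -0.03 on every array.

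Among the cytokines, Il1b encodes the precursor of interleukin-1 beta, the main fever-inducing cytokine of the inflammasome. Its log2 ratios were 0.64, 0.12 and 0.34 in PTC replicates 1, 2 and 3, and 0.40, 0.23 and 0.26 in 10PTC replicates 1, 2 and 3. All 6 lay above 0, with the highest and the lowest both at PTC. The probe passed the filter through the treated channel only, which favours ratios above 0. Neither sign nor call therefore stands as support by itself. The mean was 0.37 ± 0.26 (SD, n = 3) at PTC (limma adjusted p = 0.0201) and 0.30 ± 0.09 (SD, n = 3) at 10PTC (limma adjusted p = 0.0465).

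The Il1b transcript was near the detection limit. Its Cy3 signal was 63.2 to 70.9 scanner units and was not well above background on any array. The 153 negative control spots had Cy3 medians of 51.3 to 57.7 and 95th percentiles of 56.6 to 67.0. In Cy5, Il1b reached 65.1 in PTC replicate 2, again not well above background, and 85.7 to 111.3 on the other arrays. The size of its change is therefore uncertain. A cautious ratio was taken against the lowest control signal that counted as above background on each array, or its own where that was higher. It put Il1b 1.21-fold higher at PTC as a mean of 3 arrays, of which 2 measured its treated signal. At 10PTC its own control signal was the higher of these, so this gives the fitted 1.23-fold and no separate value. The cautious ratio leaves out spread between arrays and other processing, so it is no lower limit.

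How large the Il1b ratio came out turned on the processing. The PTC mean was 0.95 with a normexp offset of 0 and 1.66 with the scanner software's processed signals. At 10PTC, centring each array on its median in place of loess gave -0.019. The PTC call was lost in 6 of 21 alternatives, among them the slide as a block (0.36, limma adjusted p = 0.0523). It was lost without PTC replicate 1 (0.23, limma adjusted p = 0.0529) or PTC replicate 3 (0.38, limma adjusted p = 0.0710). The 10PTC call was lost in 8 of 21 alternatives with the sign kept. In 1 more, median centring, the call was lost and the sign changed (limma adjusted p = 0.885). It was lost with the slide as a block (0.32, limma adjusted p = 0.210), with the scanner software's processed signals (1.57, limma adjusted p = 0.0669), with an offset of 0 (0.72, limma adjusted p = 0.0568) and in the authors' deposited table (0.67, limma adjusted p = 0.330). Leaving out PTC replicate 3 or any 10PTC array also ended it, with limma adjusted p-values of 0.0740 to 0.226.

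Il18 encodes interleukin-18, the other cytokine that caspase-1 activates. The probe was far above background, with Cy3 signals of 673 to 726. The log2 ratios were 0.27, 0.19 and 0.13 at PTC and -0.09, -0.03 and 0.14 at 10PTC. All PTC arrays lay above 0, against 1 of 3 10PTC arrays, and the dose groups overlapped because 10PTC replicate 3 stood above PTC replicate 3. The mean at PTC was 0.19 ± 0.07 (SD, n = 3; limma adjusted p = 0.0345), and at 10PTC it was 0.01 ± 0.12 (SD, n = 3; limma adjusted p = 0.929). With median centring the 10PTC mean was 0.21 and passed (limma adjusted p = 0.0210). The PTC call was lost in 11 of 22 alternatives. Among these were the slide as a block (0.18, limma adjusted p = 0.0844), the scanner software's processed signals (0.21, limma adjusted p = 0.0505), each PTC array left out (0.16, 0.20 and 0.23 without replicates 1, 2 and 3) and 10PTC replicate 2 left out (0.19).

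Of the sensors, Nlrp3 had ratios of -0.08, -0.08 and -0.07 at PTC and -0.06, -0.03 and -0.06 at 10PTC. Every array lay just under 0, and the spread between arrays was the smallest of the members. The means were -0.08 ± 0.01 at PTC and -0.05 ± 0.02 at 10PTC (SD, n = 3 each; limma adjusted p = 0.158 and 0.335). The other Nlrp3 probe, 1427 bases away, had means of -0.04 and 0.02, and was not called either. With the scanner software's processed signals, the PTC mean was -0.17 and passed the test, as it did at -0.12 without background subtraction.

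The Nlrp3 signal itself differed between the slides. In Cy3, which held the same kind of control RNA throughout, it was 101.8 and 99.1 scanner units on slide 1 and 350.0 to 373.0 on slide 2. The Cy5 signal went the same way, from 93.2 and 98.7 to between 461 and 561. The ratio on each array was nevertheless close to 0. On the log2 Cy3 signal before background subtraction, centred on each array's median over gene probes, Nlrp3 was 1.37 higher on slide 2, whereas the median over 32490 probes was -0.29. Of those probes, 0.757% stood as high or higher. The other Nlrp3 probe was 0.87 higher, a rank reached by 3.06% of probes.

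Mlkl was the other member with this pattern, at 113.8 and 102.8 in Cy3 on slide 1 and 217 to 229 on slide 2. That was a difference of 0.55 log2 units, reached by 6.28% of probes. The remaining members were lower on slide 2, from -0.25 for Aim2 to -0.52 for Ripk3, where all probes had a lower quartile of -0.39. Values of Nlrp3 and Mlkl are thus given only as ratios within an array. The part of the control RNA, the slide or the hybridization in the difference was not tested.

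**Figure D2:**
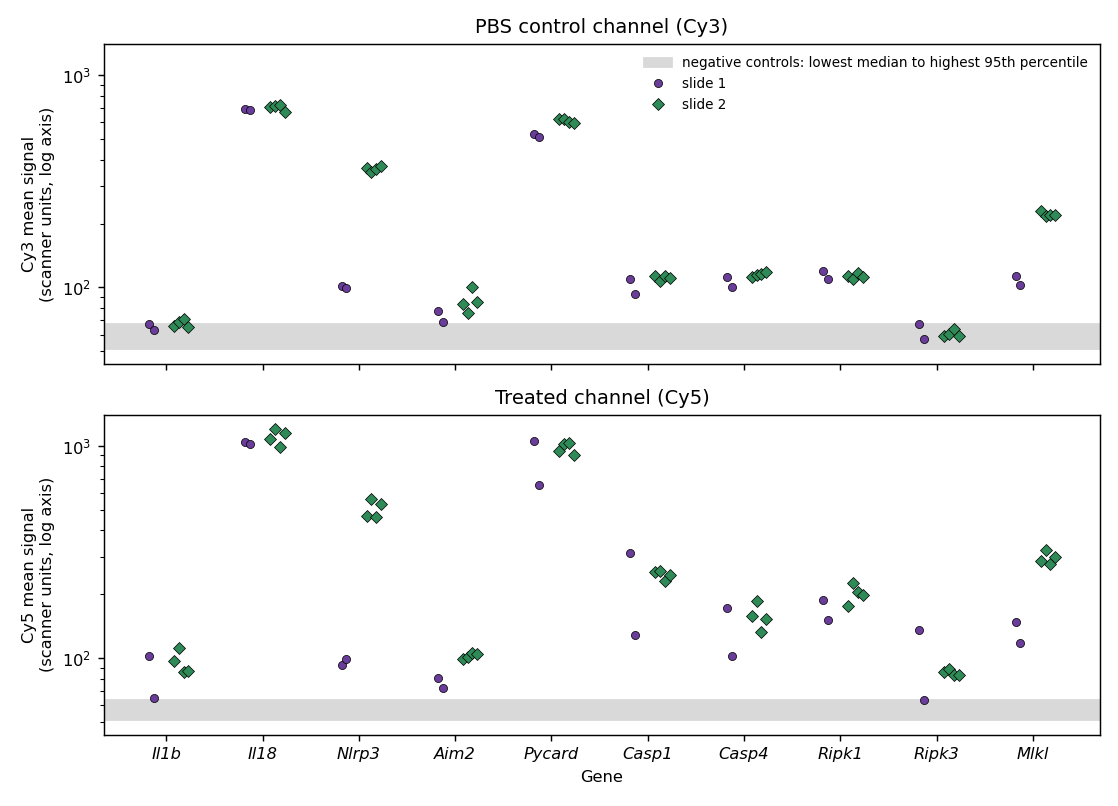
The plot of channel signals shows, on a log axis in scanner units, the Cy3 (PBS, upper panel) and Cy5 (treated, lower panel) mean signal of each gene's probe on each of the 6 arrays, coloured by slide, with the range of the negative controls shaded. Nlrp3 in Cy3 sits at 101.8 and 99.1 on slide 1 and 350.0 to 373.0 on slide 2, and Il1b and Ripk3 touch the shaded range in Cy3. Signals of different probes are not comparable with each other.

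Aim2, the DNA sensor, had ratios of 0.01, -0.02 and 0.05 at PTC and 0.09, -0.10 and 0.09 at 10PTC, on both sides of 0 at each dose. The means were 0.01 ± 0.04 and 0.03 ± 0.11 (SD, n = 3 each; limma adjusted p = 0.907 and 0.721). The probe was dim. Its Cy3 signal of 68.8 to 100.7 stood above background on 4 arrays and its Cy5 signal of 72.1 to 105.7 on 5. The call depended on the processing: with the scanner software's processed signals the PTC mean was 0.61, and in the authors' deposited table it was 0.63, both called higher, while median centring gave -0.14, called lower. A change of the background correction alone left it uncalled, at 0.11 without subtraction and 0.02 with an offset of 0. No direction is therefore given for Aim2.

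Pycard encodes the adaptor ASC, without which NLRP3 and AIM2 cannot recruit caspase-1. Its probe was well above background, with Cy3 signals of 512 to 621. The log2 ratios were 0.71, -0.02 and 0.14 at PTC and -0.11, 0.31 and -0.02 at 10PTC. At each dose 1 array stood above the other two, PTC replicate 1 and 10PTC replicate 2, and the groups overlapped. The means of 0.27 ± 0.38 and 0.06 ± 0.22 (SD, n = 3 each) did not pass the test (limma adjusted p = 0.163 and 0.768). With median centring the PTC mean was 0.44 and passed (limma adjusted p = 0.0265).

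Of the caspases, Casp1 was called at both doses. Its ratios were 1.33, 0.34 and 0.76 in PTC replicates 1, 2 and 3, and 0.76, 0.78 and 0.66 in 10PTC replicates 1, 2 and 3. All 6 lay above 0. The PTC arrays spread widely on both sides of the closely placed 10PTC arrays. The mean at PTC was 0.81 ± 0.50 (SD, n = 3), a 1.76-fold increase (limma adjusted p = 0.00835). At 10PTC the mean was 0.73 ± 0.06 (SD, n = 3), a 1.66-fold increase (limma adjusted p = 0.0149).

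The Casp1 signal was 93.0 to 113.8 in Cy3 and 128 to 313 in Cy5, and each channel stood above background on every array. The PTC call held under all 22 alternatives that include a test, with means from 0.55 to 1.38. The 10PTC call was lost without 10PTC replicate 1, 2 or 3, at means of 0.72, 0.71 and 0.77 and limma adjusted p-values of 0.0924, 0.0633 and 0.0748. It was also lost with the slide as a block (0.77, limma adjusted p = 0.115). That fit places 10PTC between the slides although all its arrays lie on slide 2. Within slide 2, the PTC ratio was 0.76 in the single array there and the 10PTC mean was 0.73.

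Casp4 lies beside Casp1 in the genome. The probe of Casp1 is at chr9:5307206-5307265 and that of Casp4 at chr9:5336658-5336717 (mm9, as the array design gives it), 29452 bases apart. Casp4 had ratios of 0.51, -0.18 and 0.29 at PTC and 0.19, 0.01 and -0.02 at 10PTC. PTC replicate 2 was the lowest of the 6 and PTC replicate 1 the highest. The means of 0.21 ± 0.35 and 0.06 ± 0.11 (SD, n = 3 each) did not pass the test (limma adjusted p = 0.211 and 0.729). Without PTC replicate 2 the PTC mean was 0.40 and passed (limma adjusted p = 0.0141). The other Casp4 probe shares 55 of its 60 bases with the first, so both read nearly the same stretch. Its means were 0.06 and 0.07.

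Of the necroptosis kinases, Ripk1 encodes the kinase that joins the TNF receptor complex and decides between survival and death signalling. Its ratios were 0.55, 0.34 and 0.34 at PTC and 0.42, 0.49 and 0.37 at 10PTC. All 6 lay above 0 within a narrow range, and the doses overlapped. The mean was 0.41 ± 0.12 (SD, n = 3) at PTC, a 1.33-fold increase (limma adjusted p = 0.00272), and 0.42 ± 0.06 (SD, n = 3) at 10PTC, a 1.34-fold increase (limma adjusted p = 0.00340). The smallest adjusted p of the members at each dose was that of Ripk1. The probe, at chr13:34125152-34125211 (mm9), had signals of 109 to 120 in Cy3 and 150.5 to 225.2 in Cy5. The 10PTC call held under all 22 alternatives that include a test, and the PTC call under all but 1, the fit within slide 2. There PTC has a single array (0.34, limma adjusted p = 0.0524), assumed to vary like the 10PTC arrays.

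Ripk3 encodes the kinase that phosphorylates MLKL. Its ratios were 0.90, 0.21 and 0.34 at PTC and 0.31, 0.30 and 0.24 at 10PTC. All 6 lay above 0, and PTC replicate 1 stood far above the rest. As with Il1b, the filter was passed through the treated channel only, so neither sign nor call stands as support by itself. The mean was 0.49 ± 0.37 (SD, n = 3) at PTC (limma adjusted p = 0.0184) and 0.28 ± 0.04 (SD, n = 3) at 10PTC (limma adjusted p = 0.112). Without PTC replicate 1, the PTC mean was 0.28 and still passed, and the 10PTC mean, unchanged at 0.28, passed too (limma adjusted p = 0.00403). Of the PTC arrays then left, only PTC replicate 3 had a treated signal above background.

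The Ripk3 control signal of 57.0 to 67.4 lay close to the 95th percentiles of the negative controls, 56.6 to 67.0. It was not well above background on any array. In Cy5 it was 63.4 in PTC replicate 2, again not above background, and 83.0 to 135.5 elsewhere. The cautious ratio, taken as for Il1b, was 1.27-fold at PTC, where 2 of 3 arrays measured its treated signal. At 10PTC the cautious ratio was 1.19-fold, without a call. With the scanner software's processed signals the PTC mean was 1.97 and with a normexp offset of 0 it was 1.20. The size of its change is not settled by these arrays.

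Mlkl encodes the protein that breaks the membrane at the end of necroptosis. Its ratios were 0.25, 0.02 and -0.11 at PTC and -0.12, 0.00 and -0.06 at 10PTC. PTC replicate 1 was the only array clearly above 0. The means of 0.06 ± 0.18 and -0.06 ± 0.06 (SD, n = 3 each) did not pass the test (limma adjusted p = 0.564 and 0.551).

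The promoters of these genes were read to show what stands before genes that moved and genes that did not. RefSeq start sites of GRCm38.p6 matched all 10 members with 13 windows of 300 bases, 250 before the start and 50 after it. They were searched on both strands for 4 motifs, and matches may overlap. GAAANNGAA, the pair found in interferon response elements, was in 8.56% of 32851 promoters and in those of Ripk1 and Ripk3. TTCNNNGAA, which STAT factors bind, was in 8.3% of promoters and in that of Ripk1. The NF-kappa-B motif was in 8.46% and in those of Nlrp3 and Casp4. TGANTCA, the AP-1 motif, was in 7.81% and in none of the members. None of the 4 was found in the window of Casp1, which rose at both doses. The stretches below show the members with several matches. That of Ripk1, which rose at both doses, is at chr13:34002751-34002877 on the plus strand, from -123 to 4 around its second listed start. Capitals mark 2 copies of TTCNNNGAA, the second overlapping GAAANNGAA. That of Casp4, which was not called at either dose, is at chr9:5308741-5308834 on the plus strand, from -108 to -15. Capitals mark NF-kappa-B matches, of which the first run holds a pair that overlap. A match is a description of the letters only.
Ripk1: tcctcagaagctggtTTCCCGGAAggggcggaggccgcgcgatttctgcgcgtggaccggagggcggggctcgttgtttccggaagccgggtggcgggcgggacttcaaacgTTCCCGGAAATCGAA
Casp4: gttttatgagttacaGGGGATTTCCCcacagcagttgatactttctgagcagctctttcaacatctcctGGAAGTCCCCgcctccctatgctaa

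Between the doses, no member differed by the test. The comparison asks whether the response grew with the amount of nanoparticles. In limma, 0 of 10 members and 0% of all genes had an adjusted p under 0.05, and the smallest adjusted p over all genes was 0.228. At an unadjusted p under 0.05 there was 1 member, Il18, against 8.15% of all genes. For Il18 the difference of 10PTC minus PTC was -0.19 (95% interval -0.37 to -0.00051, limma adjusted p = 0.613).

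For Ripk1 the difference was 0.01 (95% interval -0.17 to 0.20), a narrower interval than those of Casp1, Ripk3 and Il1b. For Casp1 it was -0.08 (95% interval -0.59 to 0.43) and for Ripk3 -0.21 (95% interval -0.59 to 0.18), both wide. For Il1b it was -0.07 (95% interval -0.37 to 0.23). Among the members not called against PBS, the differences were 0.02 for Nlrp3 (95% interval -0.10 to 0.15), 0.02 for Aim2 (-0.15 to 0.19), -0.21 for Pycard (-0.67 to 0.24), -0.15 for Casp4 (-0.53 to 0.24) and -0.11 for Mlkl (-0.34 to 0.11). Nlrp3 was the single member whose dose groups did not overlap, with all 10PTC arrays above all PTC arrays, by 0.02 on average. The share of all genes without overlap was not counted, so nothing is read from this. A p that misses the threshold does not show that the doses acted alike. Within slide 2, where PTC has 1 array, the differences ran from -0.23 for Casp4 to 0.08 for Ripk1, given as values because the spread comes from the 10PTC arrays alone.

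The other genes of these pathways were counted in 4 lists. The counts of each list stand beside 16.9% of all genes called higher and 16.3% called lower at PTC. At 10PTC these shares were 14.4% and 13.3%. Among the inflammasome sensors and partners, 10 of 29 measured genes rose and 3 fell at PTC (median 0.16), and 9 rose and 4 fell at 10PTC (median 0.09). Naip6 was the 1 gene of the list that passed the filter through the treated channel only, which favours ratios above 0. Without Naip6, 9 of 28 rose at PTC and 8 at 10PTC. The guanylate-binding proteins Gbp2 and Gbp3, interferon-induced GTPases that help caspases reach bacterial membranes, were called at both doses, whereas Gbp5 was called at PTC (0.31, limma adjusted p = 0.0194) and not at 10PTC (0.09, limma adjusted p = 0.413). Gbp2 was at 1.04 ± 0.39 at PTC and 0.95 ± 0.04 at 10PTC (SD, n = 3 each; limma adjusted p = 0.00197 and 0.00347). Gbp3 was at 1.35 ± 0.60 and 1.20 ± 0.20 (limma adjusted p = 0.00334 and 0.00620). Naip6, of the family of bacterial protein sensors that work with NLRC4, was at 0.45 ± 0.12 and 0.43 ± 0.07 (limma adjusted p = 0.00207 and 0.00341), with a control signal never well above background. As for Il1b, its size is uncertain. The cautious ratio was 1.13-fold at PTC, where 2 of 3 arrays measured its treated signal, and 1.27-fold at 10PTC. Alternatives gave log2 ratios of 0.26 to 2.34 at PTC and 0.072 to 2.82 at 10PTC. Nlrx1, a mitochondrial member of the NLR family, was called lower at -0.22 ± 0.02 and -0.24 ± 0.02 (limma adjusted p = 0.00642 and 0.00593), but its other probe was at 0.22 and 0.16 without a call. Without 10PTC replicate 1, 2 or 3 the number higher at 10PTC was 2, 4 and 2, beside 2.95%, 10.3% and 3.30% of all genes. Nlrp10 and Nlrc4 did not pass the filter on dim probes.

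Among the 8 genes of the pyroptosis pore list, 1 rose and 1 fell at PTC (median -0.03), beside 16.9% and 16.3% of all genes. None was called at 10PTC (median -0.02), where Gsdmd just missed the threshold. Gsdmd, the pore protein that caspase-1 and caspase-4 cut, was at 0.26 ± 0.24 at PTC and 0.25 ± 0.04 at 10PTC (SD, n = 3 each; limma adjusted p = 0.0487 and 0.0578). Gsdme and Gsdma, other pore proteins, were at -0.13 and -0.05 at PTC and were called at neither dose. The Gsdmd call at PTC was lost in 13 of 22 alternatives, those without PTC replicate 1, PTC replicate 3 or any 10PTC array among them.

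Among the IL-1 family ligands, receptors and signalling genes, 5 of 17 were called higher and 1 lower at PTC (median -0.0016), and 5 higher and 2 lower at 10PTC (median 0.03). The gene called lower at PTC was Traf6. Il1r1, the receptor of interleukin-1, was at 0.37 ± 0.14 and 0.60 ± 0.09 (SD, n = 3 each; limma adjusted p = 0.00533 and 0.00167). Il33, a nuclear alarmin of this family that Muller glia make, was at 0.38 ± 0.09 and 0.60 ± 0.21 (limma adjusted p = 0.0103 and 0.00342). Map3k7, a kinase downstream of the receptor, was called higher at PTC in its brightest probe, at 0.27 ± 0.04 (limma adjusted p = 0.00401). At 10PTC that probe was at 0.07 ± 0.05 (limma adjusted p = 0.277). Its other probes were at 0.20, called, and 0.11, not called, at PTC, and at 0.01 and -0.08 at 10PTC. The difference between the doses did not pass (limma adjusted p = 0.567), and the gene counts in the TNF receptor list too. Traf6, a ubiquitin ligase of the same route, was at -0.29 ± 0.06 and -0.27 ± 0.09 in its brightest probe and at 0.17 and 0.34 in its other probe, both called, so it has no direction here. Without 10PTC replicate 1, 2 or 3 the number higher at 10PTC was 2, 3 and 3, beside 2.95%, 10.3% and 3.30% of all genes. Il1a, Il1f9 and Il18r1 did not pass the filter on dim probes.

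Among the genes of TNF receptor signalling and necroptosis control, 12 of 34 rose and 1 fell at PTC (median 0.12), and 11 rose and none fell at 10PTC (median 0.09). Casp8, which cuts RIPK1 and RIPK3 and so holds necroptosis back, was at 0.73 ± 0.22 and 0.66 ± 0.08 (SD, n = 3 each; limma adjusted p = 0.00140 and 0.00260). Tnfrsf1a, the main TNF receptor, was at 1.09 ± 0.46 and 0.97 ± 0.10 (limma adjusted p = 0.00266 and 0.00502), and its other probe at 0.72 and 0.60. Tlr3, a sensor of double-stranded RNA that can start necroptosis, was at 0.45 ± 0.09 and 0.34 ± 0.09 (limma adjusted p = 0.00201 and 0.00582), with a control signal never well above background. Its cautious ratio, taken as for Il1b, was 1.30-fold at PTC. Alternatives gave log2 ratios of 0.28 to 2.36 at PTC and 0.027 to 1.43 at 10PTC. Without Tlr3, which also passed the filter through the treated channel only, 11 of 33 genes of the list rose at PTC and 10 at 10PTC. Trpm7, a channel that acts downstream of MLKL, was at 0.42 ± 0.14 and 0.36 ± 0.10 (limma adjusted p = 0.00395 and 0.00842). The number higher at PTC was 7 without PTC replicate 1 and 6 without PTC replicate 3, beside 12.3% and 9.70% of all genes. At 10PTC it was 2 without 10PTC replicate 1 and also 2 without 10PTC replicate 3, beside 2.95% and 3.30%. With median centring it was 19 at PTC and 21 at 10PTC, beside 31.4% and 36.9% of all genes called higher. Birc3 did not pass the filter on dim probes. In none of the 4 lists was a gene called between the doses.

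**Figure D3:**
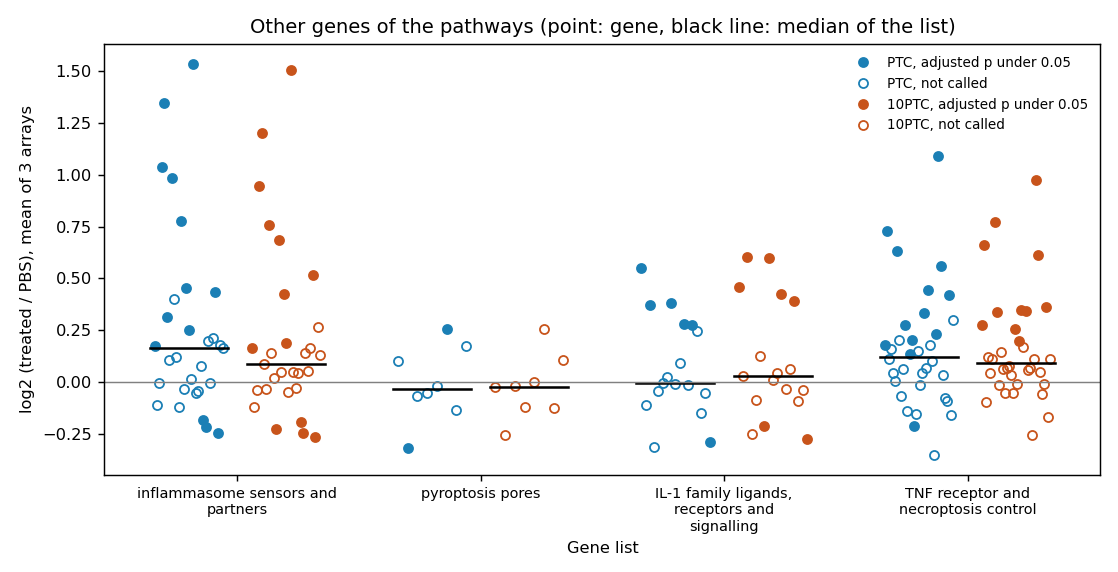
The plot of the 4 pathway lists shows each measured gene as a point at its mean log2 ratio of 3 arrays, PTC in blue and 10PTC in orange, filled where the limma adjusted p was under 0.05, with a black line at each list's median. Filled points lie mostly above 0 in the sensor list (10 of 13 called at PTC) and in the TNF receptor list (12 of 13), while the pore list has 1 on each side at PTC and none at 10PTC. Of all genes, 16.9% were called higher and 16.3% lower at PTC, and 14.4% and 13.3% at 10PTC.

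The members did not vary independently from array to array. Of the 10 genes, 8 had their highest ratio of all 6 arrays in PTC replicate 1, and 7 had the lowest ratio of the PTC arrays in PTC replicate 2. Over all genes, the shares were 24.2% and 34.8%. The median of the members was 0.53, 0.07 and 0.22 in PTC replicates 1, 2 and 3, and 0.14, 0.12 and 0.12 in the 10PTC arrays. The SD at PTC was larger than at 10PTC for 7 of 10 members, beside 64.0% of all genes.

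The marker medians of microglia and macrophages, Muller glia and astrocytes, neutrophils and monocytes, and endothelium had the same order over the PTC arrays. That of microglia and macrophages was 1.32, 0.57 and 0.98 in the PTC arrays and 0.82, 0.66 and 0.92 in the 10PTC arrays, where its order was not that of the members, with 10 of 12 higher and none lower at each dose. Tmem119 and Ptprc were the markers not called. Of all genes, 16.9% were called higher at PTC and 14.4% at 10PTC. At 10PTC, 5 markers were higher without 10PTC replicate 1 and 6 without 10PTC replicate 3, beside 2.95% and 3.30% of all genes. The summed signal of the 12 markers, in scanner units after quantile normalization of the arrays' mean log intensity (limma's Aquantile), was 20318 to 24718 in PBS, 37769 to 49137 at PTC and 37058 to 39548 at 10PTC, and no marker was below background throughout. The 5 genes whose ratios followed the median of the members most closely from array to array were Lyz2 (Pearson r 0.995), Itgb1 (0.993), Itprip (0.993), Chaf1b (0.992) and Pf4 (0.992). The r does not compare levels. Their means ran from 0.14 for Chaf1b to 1.92 for Lyz2 at PTC, and from -0.51 for Pf4 to 1.47 for Lyz2 at 10PTC. These are r over 6 arrays among 992 genes with an SD of at least 0.3, of which 113 had r over 0.95. Lyz2 encodes a lysozyme of macrophages and Itgb1 an integrin. The arrays share their control channel, and the r is a description.

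Of the neutrophil and monocyte markers 1 of 8 rose at PTC and 2 at 10PTC, with array medians from -0.10 to 0.22. The medians hide a wide spread. In PTC replicates 1, 2 and 3, S100a8 was at 2.63, -0.18 and 1.11 and S100a9 at 2.55, -0.64 and 0.66, both uncalled at each dose. Csf3r had another order, at 0.17, 0.36 and 0.06. Of the lymphocyte markers none of 6 rose, and 1 fell at PTC and 2 at 10PTC. Of the Muller glia and astrocyte markers 5 of 8 rose and 1 fell at each dose. At 10PTC 2, 3 and 2 of them rose without 10PTC replicate 1, 2 or 3, beside 2.95%, 10.3% and 3.30% of all genes. The rod markers had a median of -0.32 in PTC replicate 1, the array where the members were highest, and 0.31 in PTC replicate 2, where they were lowest. Of the endothelial markers 1 of 8 rose at each dose, and 1 fell at PTC. All 8 skeletal muscle markers fell at both doses (median -2.92 and -2.40), as did 3 of 3 red blood cell markers at PTC and 2 of 3 at 10PTC. The part of cell numbers, of the tissue taken or of PTC replicate 1 in the members' ratios was not tested. Without that array, Casp1 was at 0.55, Ripk1 at 0.34 and Ripk3 at 0.28 at PTC, all called, while Il1b and Il18 were not. For Ripk3, PTC replicate 3 was then the only PTC array with a treated signal above background.

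**Figure D4:**
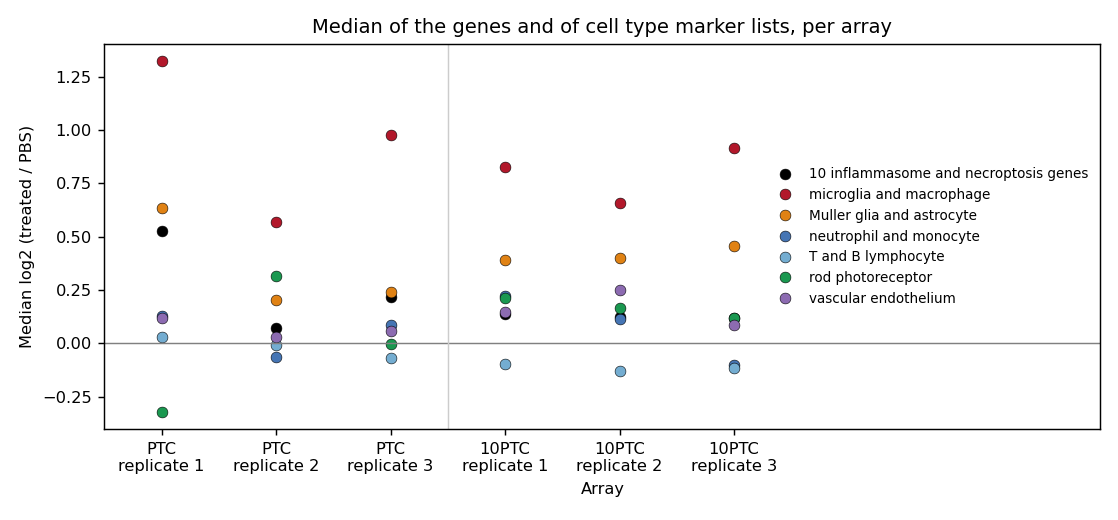
The plot of medians by array shows, for each of the 6 arrays, the median log2 ratio of the 10 genes (black) and of 6 lists of cell type markers (colours). The black point is highest in PTC replicate 1 (0.53), where the microglia and macrophage markers are highest (1.32) and the rod markers lowest (-0.32).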

How the data were processed

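RNA from 4 pooled retinas was extracted with Trizol, reverse transcribed and labelled with Cy3 or Cy5, per the labels' protocols. The deposited scanner files give spot intensity in each channel and log10 ratios, made with Agilent Feature Extraction 10.7.3.1 per the file headers (9.3.2.1 per the submitters' processing notes), on design 026655 with coordinates on mm9. The authors also deposited log2 ratios. Against the log10 ratios these had r of 0.983 to 1.00, slope 3.32 and medians of -0.075 to 0.039, so they run as Cy5 over Cy3, with unknown centring.

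Mean signals and median backgrounds were corrected by normexp (offset 50) and loess-normalized in limma 3.58.1 (R 4.3.3, version 1.17.8 of data.table), with 1377 control spots at weight 0 and 185 to 274 outlier spots per array left out. The filter dropped 6939 of 39429 probes. RefSeq genes of GRCm38.p6 named probes by accession (26055), symbol (3195) or synonym (930), and 9249 kept the file's name. Median background was 26 to 29 (Cy3) and 47 to 48 (Cy5). A limma model with a coefficient per dose (4 residual, 3.41 prior degrees of freedom) was adjusted by Benjamini-Hochberg over all genes at 0.05, and tested on simulated data. All members are named, with up to 4 genes of smallest p per pathway list, and the 5 genes most like the members' median. A gene that meets the rule is not reported here. Members and lists were chosen with earlier results of these data known. Alternatives were other background corrections, centring, filters, probe rules, blocks, moderation, the authors' values and each array left out. Applying them to the lists was added after seeing the data. Promoter letters came from RefSeq's windows on GRCm38.p6; no genome of the array's build or protein table was used.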

Additional observations from a re-analysis of the deposited data

How the results depend on the processing

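Over 23 alternatives and 641 values of single members, 556 kept their direction and side of the threshold, 32 lost their call, 13 gained one, 3 reversed, and 37 changed sign without a call. A reversal is a change of sign with a call in the main fit or in the alternative. The count of 5 members called at PTC stood beside 16.9% of all genes called higher. It was 3 when both channels had to be above background on every array (7 members left, with 19.7% of the genes left called higher). It was 2 with each dose fitted alone (8.77%), 3 with the slide as a block (11.2%) and 0 when a 2-fold change without a test was asked. Leaving out 1 array gave 3 to 5, beside 9.70% to 15.2% of all genes. The count of 3 at 10PTC, beside 14.4%, was 1 with the slide as a block (2.29%) and 0 by the 2-fold rule. It was 1 to 4 with 1 array left out (2.95% to 18.3%). Between the doses it was 0 throughout. The 3 reversals came with median centring: Aim2 was called lower at -0.14 at PTC and -0.21 at 10PTC. Il1b at 10PTC was -0.019 and not called (limma adjusted p = 0.885). That centring split all genes into 8203 higher and 4212 lower at PTC (4404 and 4252 with loess) and 9646 and 4988 at 10PTC (3762 and 3469). The cause was not tested. Nlrx1 and Traf6 turned with the choice of probe: their other probes gave 0.22 and 0.17 at PTC and 0.16 and 0.34 at 10PTC, and the median over probes gave 0.0035 for Nlrx1 at PTC and 0.034 for Traf6 at 10PTC. With the replicate number as a block, 4, 3 and 0 members were called at PTC, 10PTC and between the doses. Of all genes, 12.5% and 9.70% were then called higher at PTC and 10PTC. Arrays of the same number correlated at -0.27, 0.15 and 0.20 in their deviations, so the numbers were not taken as pairs. Signal over background limits Il1b, Ripk3 and Aim2.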
